A study of Homo sapiens with 20 samples.

Results

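IMR-32 cells that received the high dose of Dyngo-4a, 2.26 µM for 24 h, were compared with IMR-32 cells that received the solvent DMSO for the same 24 h. The comparison used 8 of the 20 libraries of the series, 4 per group, assigned by their labels, and the 13729 of 58787 genes that passed a filter on low counts. IMR-32 is an established human neuroblastoma line with an amplified MYCN gene, and the labels describe it as wild type, with the cell type neuroblast and the tissue brain. Every group was this 1 line in adherent culture, so the groups model neither other tumours nor the untransformed cells of the lineage. The titles mark the high dose with the term IC50, but the sources used here do not give the readout behind that term. The other groups were the low dose of Dyngo-4a, 1 µM, to which the high dose was also compared, prexasertib, a CHK1 inhibitor, at 2 nM, and both drugs together, at doses that the sources used here do not give. The labels do not say whether replicates were grown separately, and the p-values therefore measure only how far these libraries spread.

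Dynamins are GTPases that pinch clathrin-coated vesicles off the plasma membrane, and Dyngo-4a is a small molecule known to inhibit them. Several stress pathways that recur in the results act on separate gene sets. When amino acids run short or unfolded proteins collect, kinases phosphorylate the translation factor eIF2; most translation then slows, while that of the transcription factor ATF4 increases, and ATF4 switches on genes for amino acid supply. HSF1 drives cytosolic chaperones, NRF2 drives antioxidant enzymes, E2F factors drive replication genes and MYC proteins drive ribosome assembly. Neuroblastoma cells of the adrenergic type also keep the gene programme of sympathetic neurons, from transcription factors to catecholamine storage.

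The assay counted the 3′ ends of messenger RNAs, and the 8 libraries held between 3960885 and 6448029 counts. Levels are given in CPM, counts relative to the library total after scaling for composition, and a count of 0 allows up to 0.465 to 0.757 CPM by library, for counting error alone. The first principal component, with 19.4% of the variance over all 20 libraries, placed the 4 high-dose libraries at 32.6 to 41.9 and the 4 DMSO libraries at -17.5 to -13.6, and the second separated replicates 1 and 3 from replicates 2 and 4 within both groups. The nuclear RNA MALAT1 took 2.80% to 3.15% of the counts in the high dose and 0.941% to 1.757% in DMSO, and its part in the results was not tested. Sums over markers are relative to the library total alone, without the scaling for composition. The 12 adrenergic markers summed to 6055 to 6827 CPM in the high dose and 6081 to 6662 CPM in DMSO. TH, which starts catecholamine synthesis, had too few counts to be tested. Of the 11 tested adrenergic markers 4 were called higher and 4 lower, against 12.5% and 12.7% over all tested genes. The 12 mesenchymal markers summed to 41.7 to 58.5 CPM in the high dose and 50.6 to 64.4 CPM in DMSO, the 10 Schwann or glial markers to 3.34 to 9.17 and 6.31 to 7.60 CPM, and the 10 blood and endothelial markers to 0 to 1.85 and 0.609 to 2.69 CPM. In bulk RNA, less RNA of a gene per cell and fewer cells that carry it cannot be told apart.

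The high dose changed genes in near equal numbers each way, and the steepest changes were more often rises. In edgeR's quasi-likelihood test, with p-values adjusted over all tested genes and a threshold of 0.05, 3456 genes passed, which is 25.2% of those tested. Of these 1715 were higher (12.5% of tested genes) and 1741 were lower (12.7%). At least 2-fold rises numbered 304 and at least 2-fold falls 192, while 43 genes rose and 16 fell at least 4-fold. Changes under 1.5-fold made up 874 of the rises and 1029 of the falls. The libraries of both groups did not overlap for 3202 genes, 23.3% of those tested, and 2679 of these were also called. The median log2 fold change over all tested genes was 0.0039.

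**Figure D1:**
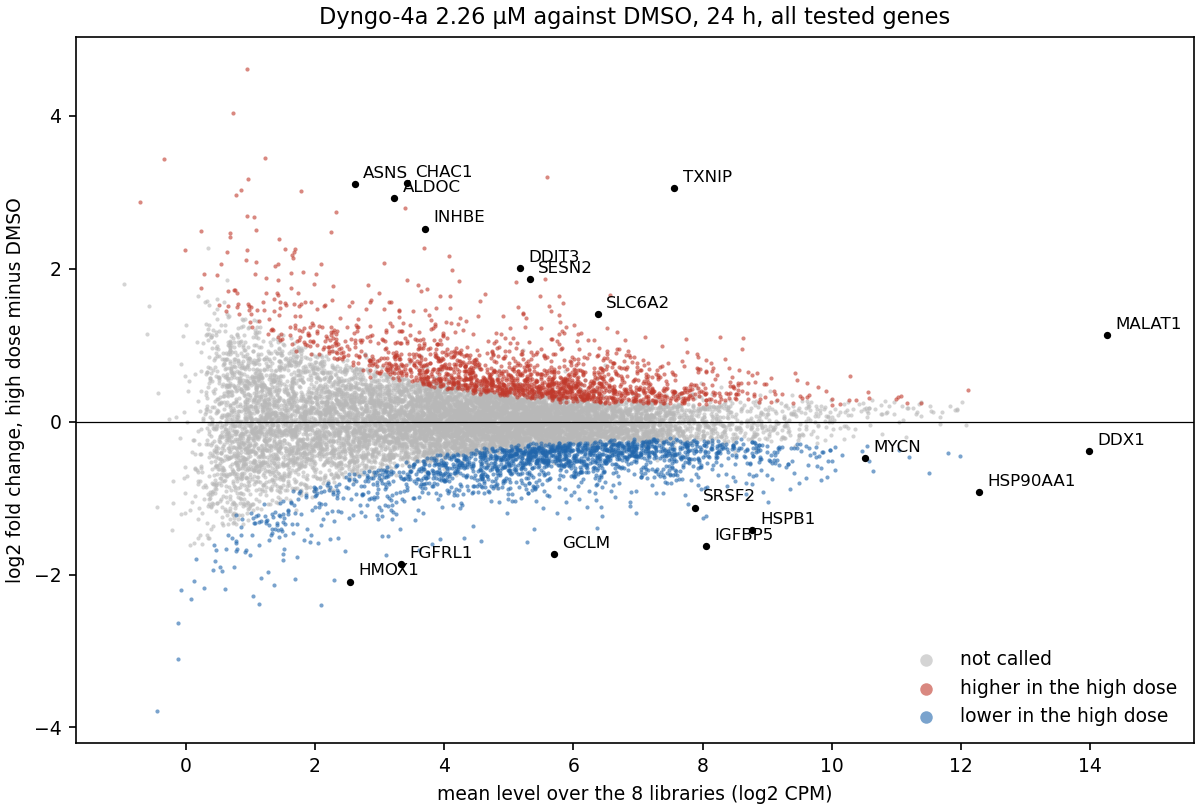
Each point is 1 of the 13729 tested genes, with its mean level over the 8 libraries in log2 CPM on the x axis and the log2 fold change of the high dose over DMSO on the y axis. Red points passed the test as higher, blue points as lower and grey points did not pass; the labelled genes are described in the text, with TXNIP at 3.06, HMOX1 at -2.09 and MALAT1 at the far right at 1.13.

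Among genes with a symbol, a mean level of at least 3 log2 CPM and no overlap between the groups, the largest rise was that of CHAC1. This gene encodes an enzyme that degrades glutathione and is a known ATF4 target. It measured 30.0, 42.1, 19.8 and 30.6 CPM in the high-dose libraries, against 3.62, 2.76, 3.83 and 3.68 CPM in the DMSO libraries (log2 fold change 3.12 ± 0.26 SE, adjusted p = 2.72e-11). TXNIP, an inhibitor of thioredoxin that also curbs glucose uptake, had the smallest p of the comparison, with 445, 543, 546 and 647 CPM in the high-dose libraries, against 69.7, 72.7, 63.3 and 57.5 CPM in the DMSO libraries (log2 fold change 3.06 ± 0.11 SE, adjusted p = 8.62e-23). The lack of overlap was a condition of this ranking, so it adds no support for CHAC1 or TXNIP. The next largest rises were those of ALDOC, a glycolytic aldolase, at 2.93 ± 0.25 and ULBP1, a ligand that marks stressed cells for natural killer cells, at 2.80 ± 0.24 (log2 fold change ± SE). INHBE, an activin subunit, followed at 2.53 ± 0.21 and HRK, a killer protein of neurons, at 2.27 ± 0.24. Among 8 tested genes for natural killer cell ligands and HLA molecules, ULBP1 was the 1 rise and 3 fell. The shares over all tested genes were 12.5% higher and 12.7% lower.

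The deepest fall under the same conditions was that of FGFRL1, a receptor of the fibroblast growth factor family without a kinase domain (log2 fold change -1.86 ± 0.24 SE, adjusted p = 2.19e-07). GCLM, the modifier subunit of glutamate-cysteine ligase, which begins glutathione production, measured 26.0, 35.3, 25.9 and 25.8 CPM in the high-dose libraries, against 88.9, 111, 89.1 and 88.4 CPM in the DMSO libraries (log2 fold change -1.73 ± 0.12 SE, adjusted p = 1.99e-13). IGFBP5, a secreted binding protein of insulin-like growth factors, measured 188, 144, 172 and 110.2 CPM in the high-dose libraries, against 496, 488, 576 and 344 CPM in the DMSO libraries (log2 fold change -1.63 ± 0.17 SE, adjusted p = 2.74e-07). For GCLM and IGFBP5 the lack of overlap was likewise a condition of selection. SYNGR4, a synaptogyrin, fell by 1.68 on the log2 scale, PIGW, an enzyme of the membrane anchor GPI, by 1.60, LFNG, a sugar transferase that modifies Notch, by 1.54, UCP2, a carrier of the inner mitochondrial membrane, by 1.39, and WDR4, a subunit of a tRNA methyltransferase, by 1.36.

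**Figure D2:**
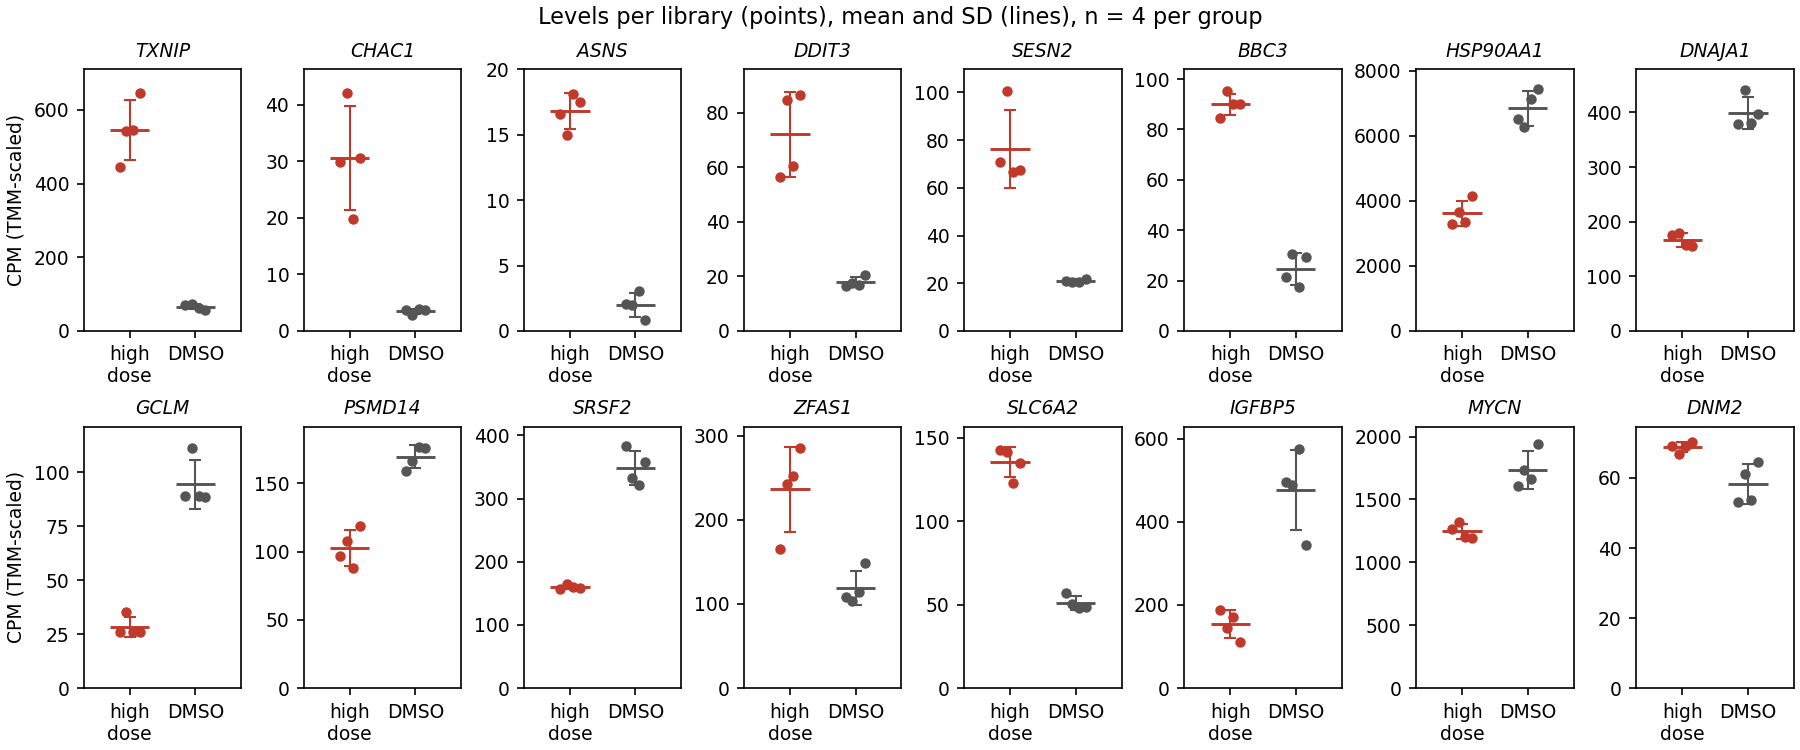
CPM per library (points) with mean and SD (lines) for 16 genes, the 4 high-dose libraries on the left and the 4 DMSO libraries on the right of each panel, each y axis starting at 0. For 16 of 16 genes the groups did not overlap, against 23.3% of all tested genes. Several of the 16 were selected by a rule that required no overlap, so the count is not a result. DNM2 in the last panel, the most widely expressed dynamin, was nonetheless not called (adjusted p = 0.0803).

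Genes of the ATF4 programme rose nearly as a block. Of 19 tested members of the list of ATF4 and stress factors, 17 rose and 0 fell, with a median log2 fold change of 1.19, against 12.5% higher and a median of 0.0039 over all tested genes. ATF4 itself measured 467, 592, 499 and 625 CPM in the high-dose libraries, against 278, 230.4, 301 and 318 CPM in the DMSO libraries (log2 fold change 0.95 ± 0.10 SE, adjusted p = 6.79e-09). Its partner in inducing death genes, DDIT3, which encodes CHOP, measured 56.4, 84.6, 60.6 and 86.6 CPM in the high-dose libraries, against 16.4, 17.5, 16.9 and 20.7 CPM in the DMSO libraries (log2 fold change 2.01 ± 0.15 SE, adjusted p = 2.03e-12). The stress factor ATF3 measured 37.7, 33.3, 27.2 and 37.7 CPM in the high-dose libraries, against 7.61, 9.28, 8.66 and 8.65 CPM in the DMSO libraries (log2 fold change 1.99 ± 0.18 SE, adjusted p = 2.49e-10). In each of these the lowest high-dose library lay above the highest DMSO library. For DDIT3 and ATF3 this was a condition of selection. STC2, a secreted glycoprotein, had the largest fitted value of all tested genes at 4.62 ± 0.58, but rested on a low DMSO level, with 6.31, 8.28, 5.99 and 5.54 CPM in the high-dose libraries, against 0.761, 0, 0 and 0.160 CPM in the DMSO libraries. The pseudokinase TRIB3 rose by 1.19, the transcription factors ATF5, JDP2 and CEBPB by 1.22, 1.17 and 0.96, and the eIF2 phosphatase subunit PPP1R15A, which ends the response, by 0.80. CEBPD and TRIB1 measured 0.20 and -0.10 and did not pass.

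ATF4 binds DNA with C/EBP factors at a composite element, which was searched for as the letters TGATGNAAN on both strands of the promoters of RefSeq, 250 bases before to 50 after the annotated start, in GRCh38.p14. A promoter was held for 10002 tested genes, and 1.49% of these had the letters, against 9 of 196 promoters (4.59%) of genes called at least 2-fold higher. Of genes called at least 2-fold lower, 2 of 124 promoters (1.61%) had the letters. They stood in 3 of 15 promoters of the ATF4 list, 6 of 16 of the cytosolic tRNA synthetases, 4 of 13 of the amino acid transporters and 4 of 12 of the serine and one-carbon enzymes. ASNS counts in both the ATF4 and the serine list. Of these members IARS1, MARS1, SLC1A3, MTHFD1L, GOT1 and BCAT1 were not called, and the others rose. Stretches of 4 promoters of risen genes are given 5′ to 3′ with the matching letters in capitals, to show the element in both orientations: ASNS (chr7:97872444-97872503, minus strand), CHAC1 (chr15:40953236-40953295, plus strand), ATF3 (chr1:212565192-212565251, plus strand) and AARS1 (chr16:70289662-70289721, minus strand). A match is a description of the letters, not evidence of binding.
ASNS: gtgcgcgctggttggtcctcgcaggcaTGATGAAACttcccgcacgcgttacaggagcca
CHAC1: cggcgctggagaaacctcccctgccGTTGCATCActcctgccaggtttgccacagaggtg
ATF3: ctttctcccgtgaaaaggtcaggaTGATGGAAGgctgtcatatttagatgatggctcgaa
AARS1: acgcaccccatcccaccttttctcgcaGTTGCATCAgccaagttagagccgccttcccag

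The enzymes that make non-essential amino acids and feed one-carbon units to folate rose with the ATF4 genes. Of 17 tested members, 9 rose and 2 fell (median 0.49), against 12.5% and 12.7% over all tested genes. ASNS, the asparagine synthetase whose element is printed above, measured 16.6, 14.9, 18.1 and 17.5 CPM in the high-dose libraries, against 2.09, 2.01, 3.02 and 0.800 CPM in the DMSO libraries (log2 fold change 3.10 ± 0.30 SE, adjusted p = 5.24e-10). Its pseudogene ASNSP1 rose by 2.48, and the sources used here do not say how reads shared by the pair were counted. The serine pathway moved at each of its 3 steps: PHGDH, the first enzyme, had 208, 252, 203 and 260.3 CPM in the high-dose libraries, against 132, 121, 140.2 and 150.5 CPM in the DMSO libraries (log2 fold change 0.76 ± 0.11 SE, adjusted p = 1.33e-06). The second and the last enzyme, PSAT1 and PSPH, rose by 1.07 ± 0.17 and 0.92 ± 0.19. The mitochondrial folate enzymes SHMT2 and MTHFD2 rose by 0.59 ± 0.11 and 0.49 ± 0.12, whereas the cytosolic folate enzyme MTHFD1 fell by 0.38 and SHMT1, the cytosolic partner of SHMT2, measured -0.31 without passing. ALDH18A1, which starts proline synthesis, fell by 0.58.

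Carriers that import amino acids and enzymes that charge cytosolic tRNAs also rose in part. Of 14 tested transporters, 8 rose and 0 fell (median 0.38), against 12.5% and 12.7% over all tested genes. SLC7A11, which imports cystine in exchange for glutamate, measured 77.5, 72.6, 42.1 and 69.0 CPM in the high-dose libraries, against 19.0, 18.8, 18.9 and 16.6 CPM in the DMSO libraries (log2 fold change 1.83 ± 0.16 SE, adjusted p = 4.41e-11). Its heavy chain partner SLC3A2 rose by 0.87 ± 0.095, the arginine and lysine carrier SLC7A1 by 0.79 ± 0.097 and the glycine carrier SLC6A9 by 1.53 ± 0.37. Of 20 enzymes that charge tRNAs in the cytosol, 9 rose and 1 fell (median 0.15), against 12.5% and 12.7% over all tested genes. Without high-dose replicate 2 the falls were 3. CARS1, the enzyme for cysteine, measured 146, 147, 121 and 168 CPM in the high-dose libraries, against 71.7, 80.2, 68.9 and 81.0 CPM in the DMSO libraries (log2 fold change 0.95 ± 0.10 SE, adjusted p = 6.79e-09). The enzymes for alanine, glycine, serine and the pair glutamate and proline, AARS1, GARS1, SARS1 and EPRS1, rose by 0.79, 0.62, 0.61 and 0.52. The exception, VARS1, for valine, fell by 0.53. None of the 17 enzymes that charge mitochondrial tRNAs rose by edgeR's test, and 3 fell, among them NARS2 by 0.48; 3 of the list had an unadjusted p under 0.05, and the share that fell over all tested genes was 12.7%.

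Genes upstream of ATF4 were called about as often as genes in general. Of 15 genes for eIF2, its kinases, its exchange factor eIF2B and its phosphatases, 3 rose and 2 fell, against 12.5% and 12.7% over all tested genes. PPP1R15B, the constitutive phosphatase subunit, rose by 0.71 ± 0.091. The beta subunit of eIF2, EIF2S2, measured 0.39 ± 0.10 and the alpha subunit EIF2S1, the one that is phosphorylated, -0.34 ± 0.095. The call of EIF2S2 was lost with replicates 1 and 3 alone (0.16, adjusted p = 0.299) and that of EIF2S1 with replicates 2 and 4 alone (adjusted p = 0.0828). The amino acid sensor EIF2AK4, known as GCN2, measured 0.19 and did not pass.

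Brakes on the growth kinase mTORC1 rose in part, as did some of the arrestin-like genes. Of 12 tested mTORC1 brakes 7 rose and 0 fell (median 0.42), against 12.5% and 12.7% over all tested genes. The rises numbered 4 without high-dose replicate 2 or without DMSO replicate 2. SESN2, a leucine sensor, measured 70.8, 100.5, 66.6 and 67.4 CPM in the high-dose libraries, against 20.7, 20.6, 20.4 and 21.9 CPM in the DMSO libraries (log2 fold change 1.87 ± 0.14 SE, adjusted p = 2.53e-12). DDIT4, which activates the TSC complex, measured 85.6, 108, 73.8 and 122 CPM in the high-dose libraries, against 35.8, 28.6, 27.8 and 32.2 CPM in the DMSO libraries (log2 fold change 1.64 ± 0.13 SE, adjusted p = 4.74e-12). The libraries did not overlap in either, which for SESN2 was a condition of selection. The sestrins SESN1 and SESN3 rose by 1.08 and 0.91, while TSC2 and the translation brake EIF4EBP1 measured -0.00060 and -0.20 without passing. Of 8 genes around TXNIP, 3 rose: TXNIP, ARRDC4 by 2.17 ± 0.22 and ARRDC3 by 1.24 ± 0.15. The other 5 were not called, and 3 of the 8 values were negative, the lowest at -0.41. The glucose-sensing factor that drives TXNIP, MLXIP, and its partner MLX measured 0.012 and -0.021 and did not pass. The paired E-box through which such factors act, searched for on both strands as the letters CACGNG and CNCGTG with any 5 bases between them, stood in 0 of 8 promoters of these genes and in 0.05% of the 10002 promoters, in the same window. It stood in 1 of 196 promoters of genes called at least 2-fold higher and 0 of 124 of those called at least 2-fold lower.

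Genes that stop the cell cycle or promote death rose as well. CDKN1A, which encodes the cyclin kinase inhibitor p21, measured 186, 196, 136 and 165 CPM in the high-dose libraries, against 55.0, 55.9, 37.5 and 67.6 CPM in the DMSO libraries (log2 fold change 1.65 ± 0.19 SE, adjusted p = 2.3e-06). The PUMA gene BBC3, whose product triggers apoptosis, measured 84.6, 95.1, 90.0 and 90.1 CPM in the high-dose libraries, against 21.3, 30.6, 17.5 and 29.3 CPM in the DMSO libraries (log2 fold change 1.87 ± 0.16 SE, adjusted p = 2.94e-10). In both the groups did not overlap, which for BBC3 was a condition of selection. The long noncoding RNA PURPL rose by 3.02 ± 0.34, the kinase PLK2 by 1.85 ± 0.20, the AKT inhibitor PHLDA3 by 1.64 ± 0.17 and the ferredoxin reductase FDXR by 1.49 ± 0.20. Of 15 genes of the BCL2 family and the death receptors 6 rose and 0 fell, against 12.5% and 12.7% over all tested genes. Among the rises were the killers HRK and BBC3 and the death receptor TNFRSF10B (at 0.49 ± 0.12). The guardians BCL2, BCL2L1 and MCL1 measured -0.17, -0.095 and -0.19, and the pore former BAX measured 0.17; none of these 4 passed.

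Protein folding genes of the cytosol fell. Of 19 tested heat shock genes 14 fell and 1 rose (median -0.69), against 12.7% and 12.5% over all tested genes. HSP90AA1, the inducible HSP90 and among the most abundant messages of the cells, measured 3296, 3659, 3340.1 and 4137 CPM in the high-dose libraries, against 6495, 6260.1, 7133 and 7445 CPM in the DMSO libraries (log2 fold change -0.92 ± 0.093 SE, adjusted p = 1.75e-09). DNAJA1, a cochaperone of HSP70, measured 176, 179, 157 and 155 CPM in the high-dose libraries, against 379, 442, 380.4 and 398 CPM in the DMSO libraries (log2 fold change -1.26 ± 0.086 SE, adjusted p = 2.27e-13). The small heat shock gene HSPB1 measured 309, 308, 263 and 199.5 CPM in the high-dose libraries, against 676, 808, 594 and 816 CPM in the DMSO libraries (log2 fold change -1.42 ± 0.15 SE, adjusted p = 7.52e-08). Each fell in all 4 libraries below all 4 DMSO libraries, which for HSPB1 was a condition of selection. HSPA8, the constitutive HSP70, fell by 0.87, and the HSP90 cochaperones FKBP4, CACYBP, STIP1 and AHSA1 fell by 0.85, 0.77, 0.69 and 0.62. HSPA1B fell by 1.57, a value that is uncertain because HSPA1A is a near-identical copy. HSF1, the factor itself, measured 0.034, and the 1 rise was that of HSPA4L at 0.33 (adjusted p = 0.0193), which missed the threshold without high-dose replicate 1 (0.0909), DMSO replicate 3 (0.0513) or DMSO replicate 4 (0.0507).

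HSF1 binds inverted repeats of the letters GAA. The letters GAA, TTC and GAA with any 2 bases after each of the first and second, searched for on both strands, stood in 4 of 17 promoters of this list and in 0.29% of the 10002 promoters. They stood in 2 of 124 promoters of genes called at least 2-fold lower and 0 of 196 of those called at least 2-fold higher. Of the 4 list members with the letters HSPA8, DNAJA1 and CHORDC1 fell, and DNAJB6 was not called. In HSPA8 the letters stood at -230 and at -55 from the start, and the stretch below holds just the match at -55. The promoter stretches of HSPA8 (chr11:123062157-123062216, minus strand) and of the cochaperone CHORDC1, which fell by 0.42 (adjusted p = 0.0113, but 0.0553 without high-dose replicate 1; chr11:90223070-90223129, minus strand), are given to show a single match and a run of 3 overlapping ones, with the matching letters in capitals.
HSPA8: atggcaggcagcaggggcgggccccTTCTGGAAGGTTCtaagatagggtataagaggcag
CHORDC1: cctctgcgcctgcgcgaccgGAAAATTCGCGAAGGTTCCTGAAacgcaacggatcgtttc

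Chaperone systems next to HSP70 and HSP90 fell in part. The ring chaperonin CCT folds actin and tubulin, and prefoldin delivers proteins to it. Of their 14 genes 5 fell and 0 rose (median -0.22), with the subunits TCP1, CCT7 and CCT5 at -0.57 ± 0.086, -0.41 ± 0.10 and -0.39 ± 0.10 and the prefoldin PFDN2 at -0.47 ± 0.11. Of 13 mitochondrial chaperones and proteases 4 fell, a count that was 2 without high-dose replicate 3 or DMSO replicate 2. Over all tested genes 12.7% fell. The chaperonin pair HSPE1 and HSPD1 led them: HSPE1 measured 135, 165, 141 and 163 CPM in the high-dose libraries, against 312, 268, 334 and 364 CPM in the DMSO libraries (log2 fold change -1.08 ± 0.12 SE, adjusted p = 8.8e-09), and HSPD1 fell by 0.44. The mitochondrial proteases LONP1, CLPP and YME1L1 measured 0.056, 0.031 and -0.10 without passing.

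**Figure D3:**
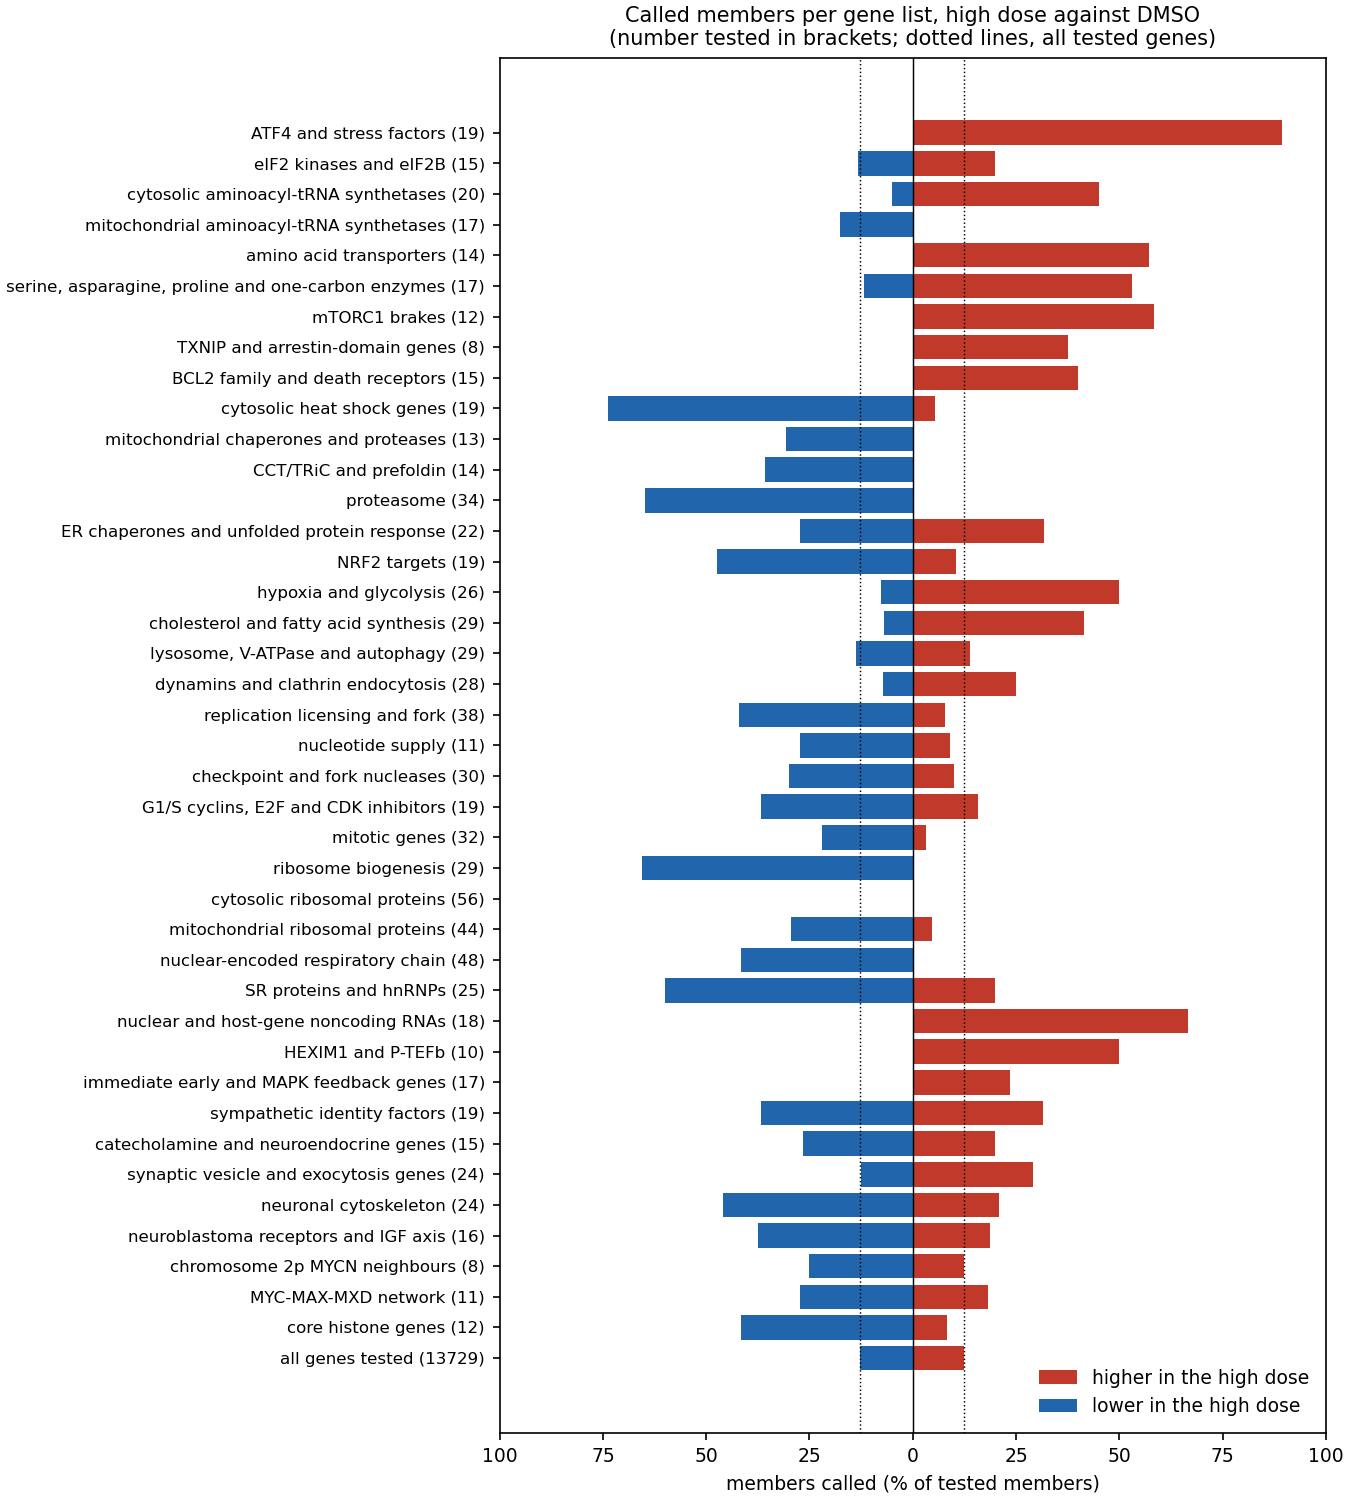
Share of tested members called higher (red, to the right) or lower (blue, to the left) in the high dose against DMSO for the gene lists shown, in percent of tested members, with the number tested in brackets. Dotted lines mark the shares over all tested genes, 12.5% higher and 12.7% lower; the ATF4 list reached furthest to the right and the cytosolic heat shock list furthest to the left.

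The proteasome, which degrades ubiquitin-tagged proteins, fell across both its core and its cap. Of 34 tested genes 22 fell and 0 rose by edgeR's test (median -0.42), against 12.7% and 12.5% over all tested genes. By the same test 27 of the 34 had an unadjusted p under 0.05. POMP, the chaperone of core assembly, measured 185, 196, 186 and 209 CPM in the high-dose libraries, against 331, 325, 354 and 402 CPM in the DMSO libraries (log2 fold change -0.87 ± 0.098 SE, adjusted p = 1.74e-08). PSMD14, the deubiquitinase of the cap, measured 96.6, 108, 88.0 and 118 CPM in the high-dose libraries, against 159, 166, 176 and 176 CPM in the DMSO libraries (log2 fold change -0.72 ± 0.097 SE, adjusted p = 5.73e-07). The libraries did not overlap in either. Core subunits fell by 0.71 (PSMB2), 0.64 (PSMA3) and 0.61 (PSMB1), the ATPases PSMC2 and PSMC4 by 0.82 and 0.69, and the cap subunits PSMD11, PSMD1 and PSMD12 by 0.70, 0.69 and 0.68. NFE2L1, the factor that raises proteasome genes when the proteasome fails, measured 0.059 and did not pass.

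Genes of the endoplasmic reticulum moved both ways. Of 22 genes 7 rose and 6 fell, against 12.5% and 12.7% over all tested genes. The falls numbered 3 without high-dose replicate 3, DMSO replicate 1 or DMSO replicate 3. The rises were in the sensor ERN1, known as IRE1 (19.3, 30.8, 22.3 and 22.7 CPM in the high-dose libraries, against 8.18, 5.77, 7.46 and 7.04 CPM in the DMSO libraries; log2 fold change 1.73 ± 0.19 SE, adjusted p = 1.58e-08), its target factor XBP1 at 1.02 ± 0.11 and the degradation genes HERPUD1, DNAJB9 and SEL1L at 1.18 ± 0.13, 0.74 ± 0.18 and 0.48 ± 0.12, among others. The falls were in folding genes, with SDF2L1 at -0.72 ± 0.10, the secreted MANF at -0.64 ± 0.11 and CRELD2 at -0.52 ± 0.14. The main chaperone HSPA5, known as BiP, measured 289, 416, 297 and 286 CPM in the high-dose libraries, against 355, 338, 336 and 322 CPM in the DMSO libraries, which overlapped (log2 fold change -0.068 ± 0.12 SE, adjusted p = 0.720). Its nucleotide exchange factor HYOU1 measured -0.10 and did not pass.

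Antioxidant genes fell around a cystine transporter that rose. Of 19 tested NRF2 targets 9 fell and 2 rose (median -0.35), against 12.7% and 12.5% over all tested genes. The falls numbered 5 without high-dose replicate 1 or 2 or DMSO replicate 4. HMOX1, which degrades haem, measured 2.56, 3.06, 1.81 and 2.95 CPM in the high-dose libraries, against 10.3, 12.8, 11.7 and 10.1 CPM in the DMSO libraries (log2 fold change -2.09 ± 0.28 SE, adjusted p = 4.36e-07). The thioredoxin reductase TXNRD1 and the peroxiredoxin PRDX1 fell by 0.73 and 0.67. The rises included SLC7A11, which the ATF4 list also holds. NFE2L2, which encodes NRF2, measured 0.25 without passing (adjusted p = 0.0997; 0.0357 without high-dose replicate 1 and 0.0436 without DMSO replicate 2), the catalytic subunit GCLC -0.13 likewise, and the ferritins FTL and FTH1 -0.16 and -0.16. The antioxidant element, searched for as the letters TGACNNNGC on both strands, stood in 4 of 12 promoters of this list, 6 of 29 of the proteasome list and 15.2% of the 10002 promoters. Among genes called at least 2-fold lower it stood in 16.9% of promoters, and among those at least 2-fold higher in 11.2%. Of the 4 NRF2 targets with the letters GCLM and TXNRD1 fell, and PGD and ME1 were not called. Of the 6 proteasome genes PSMC4, PSMD1, PSMD12 and PSME4 fell, and PSMB3 and PSMD3 were not called. The stretch before the start of GCLM (chr1:93909431-93909490, minus strand) is given because GCLM fell deepest of the well expressed members, with the letters in capitals on the opposite strand.
GCLM: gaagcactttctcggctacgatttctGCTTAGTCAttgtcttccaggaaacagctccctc

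**Figure D4:**
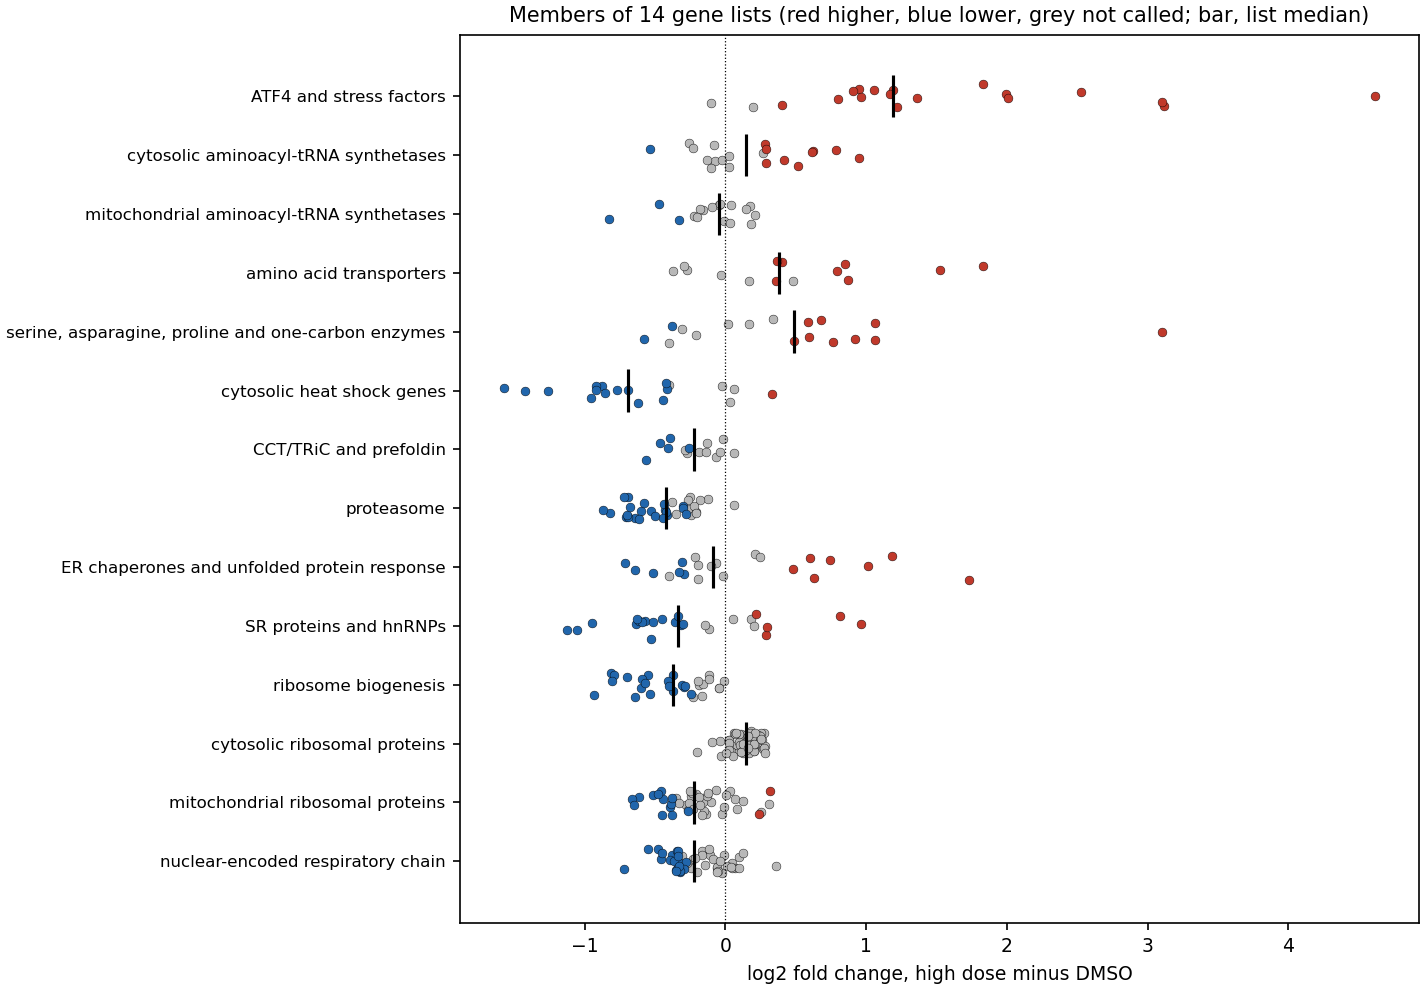
Log2 fold change of the high dose over DMSO (x axis) for each tested member of 14 gene lists (rows), red where called higher, blue where called lower and grey where not called, with a bar at the list's median. The ATF4 row has its median at 1.19, the heat shock row at -0.69, and the cytosolic ribosomal proteins form a narrow grey group around 0.15.

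Messages for ribosome assembly fell while those for the ribosome's own proteins did not pass. Of 29 biogenesis factors 19 fell and 0 rose (median -0.37), against 12.7% and 12.5% over all tested genes. RRP12, an export factor of the subunits, fell by 0.94, NOP16 by 0.81, UTP20 by 0.81 and DKC1, which modifies ribosomal RNA, by 0.53. NCL, the abundant nucleolin, measured 1778, 2019, 1657 and 1946 CPM in the high-dose libraries, against 2488, 2339, 2367 and 2373 CPM in the DMSO libraries (log2 fold change -0.37 ± 0.085 SE, adjusted p = 0.00111), without overlap. The E-box, the letters CACGTG, which reads the same on both strands and through which MYC proteins act, stood in 9 of 23 of these promoters and in 10.4% of the 10002. Genes called at least 2-fold lower had it in 12.1% of promoters and those called at least 2-fold higher in 11.2%, both near the share over all promoters. Of the 9 biogenesis genes with the E-box RRP9, UTP20, UTP4, MYBBP1A and BYSL fell, and the others were not called. Of 56 cytosolic ribosomal protein genes, 0 rose and 0 fell by edgeR's test; 12 had an unadjusted p under 0.05. Their median was 0.15 and 52 of 56 values were positive. Between 0 and 18 passed as higher under the other settings, with 12 without high-dose replicate 1 and 10 without DMSO replicate 4.

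Mitochondrial components encoded in the nucleus fell in part. Of 44 mitochondrial ribosomal proteins 13 fell and 2 rose (median -0.22), against 12.7% and 12.5% over all tested genes. MRPL20, MRPS6 and MRPL13 measured -0.66 ± 0.13, -0.65 ± 0.11 and -0.61 ± 0.12. The rises were 4 without high-dose replicate 1. Of 48 respiratory chain and ATP synthase genes 20 fell and 0 rose (median -0.22), against the same shares. ATP5MC1, a subunit of the rotating ring of ATP synthase, measured 273, 287, 282 and 258 CPM in the high-dose libraries, against 437, 439, 422 and 516 CPM in the DMSO libraries (log2 fold change -0.72 ± 0.093 SE, adjusted p = 2.22e-07). The complex I subunits NDUFB3 and NDUFA8 fell by 0.55 and 0.48 and cytochrome c, CYCS, by 0.45. The count moved with single libraries: it was 13 without high-dose replicate 1 and 6 without DMSO replicate 4. The RNAs encoded by the mitochondrial genome were not analysed here.

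Most splicing regulators changed. Of 25 SR proteins, hnRNPs and their kinases 15 fell and 5 rose (median -0.34), against 12.7% and 12.5% over all tested genes. The libraries of both groups did not overlap for 20 of them, against 23.3% of all tested genes. SRSF2, an SR protein that marks exons, measured 157, 164, 160.0 and 158 CPM in the high-dose libraries, against 383, 332, 321 and 357 CPM in the DMSO libraries (log2 fold change -1.13 ± 0.089 SE, adjusted p = 1.03e-11). HNRNPH1, which binds runs of G, measured 408, 343, 401 and 291 CPM in the high-dose libraries, against 723, 796, 760.5 and 718 CPM in the DMSO libraries (log2 fold change -1.05 ± 0.092 SE, adjusted p = 6.48e-11). HNRNPM, HNRNPU and HNRNPA2B1 fell by 0.95, 0.63 and 0.61. The rises included the kinases that phosphorylate SR proteins, CLK1 at 0.81 ± 0.16 and CLK4 at 0.97 ± 0.17, and numbered 3 without any 1 of high-dose replicates 3 and 4 and DMSO replicates 1 and 4.

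Noncoding RNAs that stay in the nucleus or host small nucleolar RNAs rose. Of 18 such RNAs 12 rose and 0 fell (median 0.57), against 12.5% and 12.7% over all tested genes. ZFAS1, a host gene, measured 166, 243, 252 and 285 CPM in the high-dose libraries, against 109, 103, 114 and 149 CPM in the DMSO libraries (log2 fold change 0.99 ± 0.14 SE, adjusted p = 1.25e-05). GAS5 measured 253, 380.0, 384 and 430.4 CPM in the high-dose libraries, against 261, 173, 233 and 247 CPM in the DMSO libraries (log2 fold change 0.66 ± 0.15 SE, adjusted p = 0.00159), SNHG7 rose by 0.85 ± 0.12 and SNHG8 by 0.50 ± 0.097. ZFAS1 did not overlap between the groups and GAS5 did. SNHG3 and the imprinted MEG3 measured -0.13 and 0.16 and did not pass. The spliced transcripts of such host genes are known substrates of nonsense-mediated decay, which acts during translation. Their reads could not be split from an antisense partner because the sources used here give no strand setting. MALAT1, the most abundant RNA of the table, measured 27862, 28713, 30982 and 30815 CPM in the high-dose libraries, against 17402, 10468, 16534 and 9712 CPM in the DMSO libraries (log2 fold change 1.13 ± 0.23 SE, adjusted p = 0.00142).

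Replication genes and the kinases that start S phase fell in part. Of 38 replication genes 16 fell and 3 rose (median -0.26), against 12.7% and 12.5% over all tested genes. MCM6, a subunit of the replicative helicase, measured 100.4, 102, 91.6 and 116 CPM in the high-dose libraries, against 137, 171, 133 and 145 CPM in the DMSO libraries (log2 fold change -0.51 ± 0.096 SE, adjusted p = 0.000104). The sliding clamp PCNA fell by 0.51, the flap nuclease FEN1 by 0.54 and the polymerase subunit POLA1 by 0.65, while the licensing factor CDT1 rose by 0.67 ± 0.13 and its inhibitor GMNN fell by 0.59. The rises numbered 1 without high-dose replicate 3, DMSO replicate 3 or DMSO replicate 4. Of 19 G1/S regulators 7 fell, with the kinases CDK2 and CDK4 at -0.64 ± 0.11 and -0.54 ± 0.11 and cyclin CCNE2 at -0.85 ± 0.17, and 3 rose, each of them a kinase inhibitor, with CDKN1A and CDKN1C (at 0.46 ± 0.12) among them. Of 32 mitotic genes 7 fell and 1 rose. In all 25% were called, against 25.2% over all tested genes (12.7% lower and 12.5% higher). The falls numbered 4 without DMSO replicate 4. PLK1 measured -0.13 without passing, and TOP2A 0.17 (adjusted p = 0.128, but 0.0392 by DESeq2). Of 30 checkpoint and fork nuclease genes 9 fell and 3 rose, which is 40% called, against the same 25.2%. The rises numbered 1 without any 1 of high-dose replicates 2 and 4 and DMSO replicates 2 and 4. MUS81, the fork nuclease of the series' title, measured 49.9 ± 6.27 CPM in the high dose and 52.7 ± 6.80 CPM in DMSO (SD, n = 4 each; adjusted p = 0.651), and its partner EME1 fell by 0.63.

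The E2F site, searched for as the letters TTTNGCGC on both strands, stood in 14 of 32 replication promoters and in 3.23% of the 10002. It stood in 6.45% of promoters of genes called at least 2-fold lower and 2.04% of those called at least 2-fold higher. Of the 14 replication genes with the site CDC6, MCM2, MCM6, MCM7 and POLA1 fell, CDT1 rose and the others were not called. The promoter stretch of MCM6 (chr2:135876514-135876603, minus strand) is given because it holds 4 matches, in 2 stretches where a match on one strand overlaps a match on the other, in capitals.
MCM6: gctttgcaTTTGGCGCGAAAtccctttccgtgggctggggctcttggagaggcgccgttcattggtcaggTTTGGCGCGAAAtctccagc

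Histone messages moved both ways. Of 12 tested histone genes and the binding protein SLBP, 5 fell and 1 rose, against 12.7% and 12.5% over all tested genes. The replacement histones H2AZ1 and H3-3B fell by 0.72 and 0.52, SLBP, which stabilises replication histone messages, by 0.54, and H2BC12 by 1.53. The rise was H2AC6 at 1.47 ± 0.19. Replication histone genes are near-identical copies and lack poly(A) tails for the most part, so the values of H2AC6 and H2BC12 are uncertain.

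Transcription factors of the sympathetic lineage moved in both directions. Of 19 tested factors 6 rose and 7 fell (median -0.0018), against 12.5% and 12.7% over all tested genes. HAND1, an early factor of the lineage, fell by 0.91. HAND2 measured 533, 525, 488 and 562 CPM in the high-dose libraries, against 748, 867, 778 and 716 CPM in the DMSO libraries (log2 fold change -0.56 ± 0.086 SE, adjusted p = 5.37e-06). GATA2 rose by 0.87 ± 0.18, TBX2 by 0.70 ± 0.085 and PHOX2A by 0.41 ± 0.10. MYCN, the amplified oncogene, measured 1267, 1319, 1200.1 and 1197 CPM in the high-dose libraries, against 1604, 1734, 1659 and 1943 CPM in the DMSO libraries (log2 fold change -0.48 ± 0.092 SE, adjusted p = 0.000156). HAND2 and MYCN did not overlap between the groups. Of 8 genes near MYCN on the short arm of chromosome 2, DDX1, the helicase gene next to it, averaged 14143 ± 1510.5 CPM in the high dose and 18535 ± 1396 CPM in DMSO (SD, n = 4 each; log2 fold change -0.39 ± 0.097 SE, adjusted p = 0.00247), NBAS rose by 0.34 ± 0.087, and MYCNOS, antisense to MYCN, measured -0.12 without passing.

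Catecholamine and neuroendocrine genes moved both ways. SLC6A2, the noradrenaline transporter, measured 143, 141, 123 and 135 CPM in the high-dose libraries, against 57.1, 50.4, 48.2 and 48.3 CPM in the DMSO libraries (log2 fold change 1.41 ± 0.14 SE, adjusted p = 1.75e-09). DBH, which makes noradrenaline from dopamine, measured 22.3, 27.9, 37.5 and 24.5 CPM in the high-dose libraries, against 39.2, 49.1, 57.8 and 35.7 CPM in the DMSO libraries (log2 fold change -0.69 ± 0.17 SE, adjusted p = 0.00408). The groups did not overlap in SLC6A2 and did overlap in DBH. SCG2, a granin of secretory vesicles, rose by 1.17 ± 0.22 and GCH1, which makes the cofactor of TH, by 0.85 ± 0.21, while the granin CHGA fell by 0.47. In all 3 of 15 rose and 4 fell, against 12.5% and 12.7% over all tested genes, and the falls numbered 2 without high-dose replicate 2 or DMSO replicate 2.

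Genes of vesicle release and of the neuronal cytoskeleton moved both ways. Of 24 synaptic vesicle genes 7 rose and 3 fell, against 12.5% and 12.7% over all tested genes. The synaptotagmins SYT11 and SYT4 rose by 0.83 ± 0.10 and 0.71 ± 0.17 and the synapsin SYN2 by 0.69 ± 0.11, whereas SYT2 and the complexin CPLX1 fell by 0.93 and 0.55. Of 24 cytoskeletal genes 11 fell and 5 rose (median -0.24), against the same shares. The falls took in the abundant tubulins, TUBA1B with 1981, 2868, 2272 and 2168 CPM in the high-dose libraries, against 3990.2, 3276, 3574 and 3944 CPM in the DMSO libraries (log2 fold change -0.67 ± 0.12 SE, adjusted p = 4.35e-05), TUBB4B at -0.96 ± 0.088 and TUBA1A at -0.57 ± 0.11, the heavy neurofilament NEFH at -0.93 ± 0.11 and the tubulin-binding STMN1 at -0.52 ± 0.090. The rises took in MAPT, which encodes tau, at 1.08 ± 0.20, the tubulin TUBB2B at 0.70 ± 0.14 and DCX at 0.40 ± 0.10. Tubulin genes resemble each other closely, so reads may be shared among them.

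Growth factor receptors and genes of the insulin-like growth factor axis, counted together, fell more often than they rose. Of 16 tested genes 6 fell and 3 rose, against 12.7% and 12.5% over all tested genes. Next to FGFRL1 and IGFBP5, the receptor kinase KIT fell by 0.87 and the neurotrophin receptor NGFR by 0.55. Among the rises were IRS2, the adaptor of the insulin receptor, at 0.72 ± 0.094 and INSR, the receptor, at 0.43 ± 0.11. ALK, the receptor kinase often altered in neuroblastoma, measured -0.26 and did not pass. Of 11 tested genes of the MAX network 2 rose and 3 fell, against 12.5% and 12.7% over all tested genes. MXD1 and MXD4 rose by 1.29 ± 0.23 and 0.50 ± 0.11, and among the falls were MAX and MNT, by 0.40 and 0.60. Immediate early genes gave 4 rises and 0 falls among 17, which is 23.5% called, against 25.2% over all tested genes. The rises were DUSP4 at 1.56 ± 0.26, EGR1 at 1.47 ± 0.25, JUN at 1.07 ± 0.15 and JUND at 0.46 ± 0.10.

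Endocytosis genes, the process that dynamins serve, rose more often than they fell. Of 28 tested genes 7 rose and 2 fell, against 12.5% and 12.7% over all tested genes. The dynamins DNM1, DNM2 and DNM3 measured 0.041 ± 0.19, 0.24 ± 0.10 and 0.39 ± 0.26 and did not pass (adjusted p = 0.903, 0.0803 and 0.305). DNM2 measured 69.2, 66.8, 69.1 and 70.1 CPM in the high-dose libraries, against 53.1, 61.2, 53.6 and 64.7 CPM in the DMSO libraries. It was higher in each high-dose library than in each DMSO library, and its adjusted p was 0.0459 without DMSO replicate 4 and 0.0404 with replicates 1 and 3 alone. AMPH, amphiphysin, which recruits dynamin, rose by 0.79 ± 0.15, and SNAP91, a clathrin assembly protein, by 1.06 ± 0.29, a call that was lost with replicates 1 and 3 alone (adjusted p = 0.134). The clathrin heavy chain CLTC measured 343, 369, 336 and 366 CPM in the high-dose libraries, against 485, 553, 497 and 525 CPM in the DMSO libraries (log2 fold change -0.54 ± 0.082 SE, adjusted p = 4.57e-06). The transferrin receptor TFRC, the standard cargo of this route, rose by 0.34 ± 0.088. In the lysosome list 4 of 29 rose and 4 fell, which is near the shares over all tested genes, with the autophagy receptor SQSTM1 at -0.91 ± 0.098 and the master factor TFEB at 1.60 ± 0.46; the rises numbered 2 without high-dose replicate 4 or DMSO replicate 3.

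Genes of cholesterol and fatty acid synthesis rose more often than they fell. Of 29 tested genes 12 rose and 2 fell (median 0.23), against 12.5% and 12.7% over all tested genes. SREBF2, the factor that drives sterol genes, measured 109, 146, 119 and 154 CPM in the high-dose libraries, against 95.0, 82.2, 84.8 and 85.3 CPM in the DMSO libraries (log2 fold change 0.60 ± 0.10 SE, adjusted p = 3.15e-05), without overlap. HMGCS1, FDFT1 and MVD, enzymes of the sterol pathway, rose by 0.62 ± 0.10, 0.69 ± 0.11 and 0.89 ± 0.19. ACLY and FASN, which supply and build fatty acids, fell by 0.44 and 0.55, whereas the fatty acid desaturase FADS1 rose by 0.50 ± 0.081. The sterol element, the letters ATCAC and CCAC with any 1 base between them on both strands, stood in 0.08% of the 10002 promoters. It stood in 0 of 196 promoters of genes called at least 2-fold higher and 0 of 124 of those called at least 2-fold lower. In this list it stood in 1 of 23, that of SREBF2 (chr22:41832950-41833009, plus strand), which is given for that reason with the letters in capitals.
SREBF2: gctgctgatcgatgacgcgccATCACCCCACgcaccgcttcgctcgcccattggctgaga

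Hypoxia and glycolysis genes rose in 13 of 26 tested cases and fell in 2 (median 0.35), against 12.5% and 12.7% over all tested genes. VEGFA, the vascular growth factor, measured 37.7, 36.2, 33.9 and 33.2 CPM in the high-dose libraries, against 12.6, 11.3, 10.1 and 5.92 CPM in the DMSO libraries (log2 fold change 1.84 ± 0.18 SE, adjusted p = 8.16e-10). FAM162A, a mitochondrial protein induced by hypoxia, rose by 1.45 ± 0.15, PGK1 by 0.79 ± 0.11 and GAPDH by 0.41 ± 0.10. HK2, which starts glycolysis in tumour cells, LDHA and PKM measured -0.14, 0.10 and 0.084 without passing. CA9, a carbonic anhydrase of hypoxic cells, had too few counts to be tested. It had 6, 7, 9 and 18 counts in the high-dose libraries and 0 in each DMSO library. Against a floor of 3 counts over the DMSO group it was 12.7-fold higher, a value that leaves out the error of the high-dose counts.

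Changes also varied with the genomic span of a gene, from its start to its end in GENCODE 29. Tested protein-coding genes were divided by span into 5 groups of equal size. In the group of shortest genes, with a median span of 6.1 kb, 9.54% were called higher and 21.5% lower, and the median log2 fold change was -0.12. In the group of longest genes, with a median span of 182 kb, 19% were called higher and 5.84% lower, and the median was 0.13. The 3 groups between them lay in order, with medians of -0.052, -0.00080 and 0.034. Of 1136 long noncoding genes 6.25% were higher and 10.2% lower. These values describe the genes of 1 set of libraries, and no test was made.

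**Figure D5:**
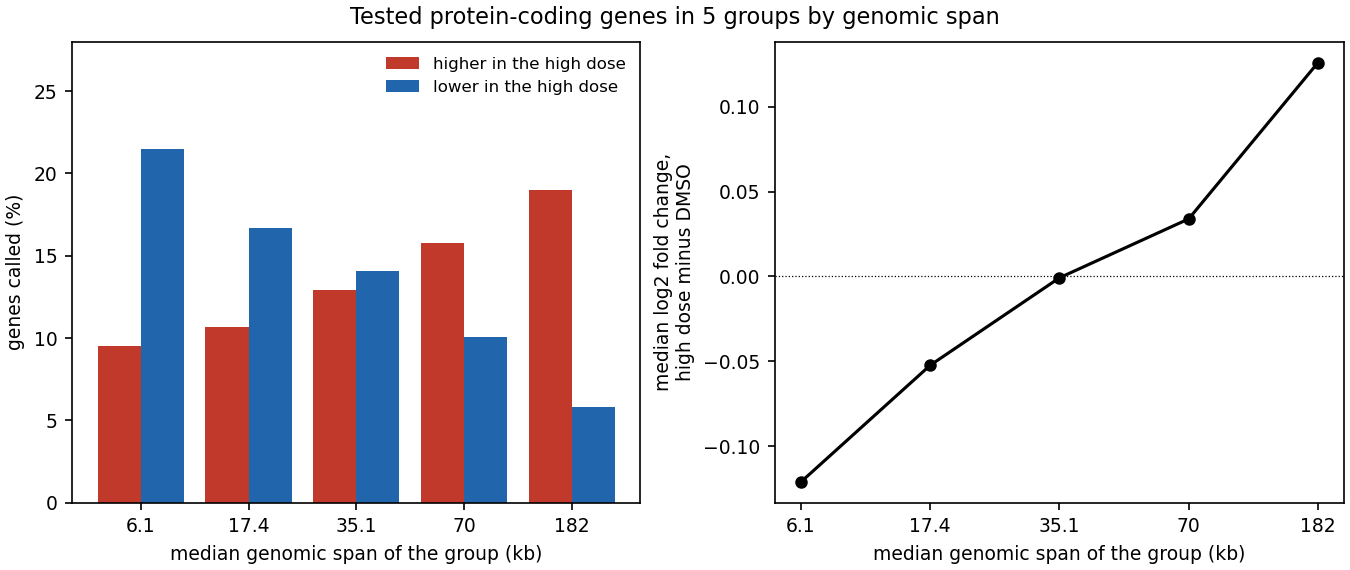
Tested protein-coding genes in 5 groups of equal size by genomic span, labelled by median span in kb. The left panel gives the share called higher (red) and lower (blue) in percent, and the right panel the median log2 fold change of the high dose over DMSO, which runs from -0.12 in the group of shortest genes to 0.13 in that of the longest.

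Compared with the low dose, 1 µM for 24 h, the high dose differed in 2767 genes, 20.2% of those tested, with 1382 higher (10.1%) and 1385 lower (10.1%). In this pair of groups same-numbered libraries deviated together, and with a replicate block in the model 3980 genes were called, 1941 higher and 2039 lower. Other values of this pair are from the fit without the block unless stated. Both comparisons share the high-dose libraries, so their values are set side by side. Of the 3456 genes called against DMSO, 2218 were also called against the low dose in the same direction. Of the ATF4 list 17 of 19 were higher than in the low dose (median 1.11), and CHAC1 measured 30.0, 42.1, 19.8 and 30.6 CPM in the high dose, against 2.37, 5.52, 1.96 and 4.54 CPM in the low dose (3.03 ± 0.26 SE, adjusted p = 6.38e-11). ASNS measured 16.6, 14.9, 18.1 and 17.5 CPM in the high dose, against 2.16, 2.05, 2.83 and 3.45 CPM in the low dose (2.67 ± 0.28 SE, adjusted p = 1.04e-08). In neither did the doses overlap, which for CHAC1 was a condition of selection.

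The gene groups differed in how far the doses were apart. Over all tested genes 10.1% were higher than in the low dose and 10.1% lower. Cytosolic tRNA synthetases were higher in 9 of 20 cases, with CARS1 at 1.15 ± 0.10 SE, adjusted p = 2.23e-10. Proteasome genes were lower than in the low dose in 15 of 34 cases (median -0.26), heat shock genes in 11 of 19 (median -0.48) and splicing regulators in 11 of 25 (median -0.20). SRSF2 measured 157, 164, 160.0 and 158 CPM in the high dose, against 272, 282, 263 and 299.9 CPM in the low dose (-0.81 ± 0.089 SE, adjusted p = 2.63e-08). Respiratory chain genes were lower in 10 of 48, which was 24 with the replicate block and 5 without low-dose replicate 4. Of the mTORC1 brakes 3 of 12 were higher than in the low dose, with SESN2 at 1.64, and CDKN1A measured 186, 196, 136 and 165 CPM in the high dose, against 169.8, 129, 80.2 and 113 CPM in the low dose, which overlapped (0.47 ± 0.18 SE, adjusted p = 0.0700; 0.00281 with the replicate block). The adjusted p of CDKN1A between the doses was also under 0.05 by DESeq2 (0.0238), by limma-voom (0.0156), with no low-count filter (0.00226), with replicates 2 and 4 alone (0.00622), without high-dose replicate 3 (0.0369) and without low-dose replicate 1 (0.00458). MYCN was lower in the high dose, with a log2 fold change of -0.48 ± 0.092 SE, adjusted p = 0.000234. SLC6A2 was higher by 0.97 ± 0.13 SE, adjusted p = 2.08e-06, and GAPDH measured 0.12 (adjusted p = 0.428).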

How the data were processed

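The deposited values are raw counts per gene, not normalised, for 58787 Ensembl identifiers in 20 libraries of QuantSeq 3′ mRNA, which per the labels' protocols carried molecular barcodes and were sequenced as single-end reads. Per the submitters' processing notes the build was GRCh38 and the tools were STAR 2.7.2b, limma 3.50.3, FastQC 0.11.7 and edgeR 3.36.0. The sources used here do not give the counting tool, the strand setting or the use of the barcodes. A 3′ count gives 1 read per message end, so levels are not divided by length.

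Genes were filtered with filterByExpr (minimum count 10, minimum total 15), scaled by TMM and fitted in R 4.3.3 with edgeR 4.0.16: 1 model, a term per group, 20 libraries, and a robust quasi-likelihood F-test with 15 residual degrees of freedom. Tests were two-sided, adjusted by Benjamini-Hochberg over the tested genes within each comparison, with a threshold of 0.05. Standard errors are the log2 fold change over the root of F, and log values used a prior count of 2. The steps were tested on simulated data, where 39.4% of 66 1.5-fold, 69.7% of 66 2-fold and 93.8% of 65 4-fold changes were called in the right direction. False calls numbered 4 among 13518 genes. Far fewer genes were changed there than were called in the real data, and the simulated libraries held no split between replicates. These rates therefore do not carry over to the real comparison. A gene that did not pass is not shown to be unchanged. GENCODE 29 gave coordinates for 13722 tested genes; names came from a separate table, in which 802 tested genes had no symbol. RefSeq promoters (GRCh38.p14) were matched by symbol.

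The members, the lists and the rule for named genes were chosen with earlier results of these data known, so the counts over lists are descriptions; 1 list and some genes are not reported here. The rule took the 15 largest rises and falls with no overlap and a mean level of 3 log2 CPM or more, the smallest p-values, the highest levels, up to 6 members of each list with the smallest p and a few fixed genes. Other members named in the text were picked with their values in view. Alternatives tried were other scalings, filters, tests (DESeq2 1.42.0, limma-voom 3.58.1), a fit of just the compared groups, a replicate block, replicate subsets and leaving out each library. The labels do not state that replicate numbers pair the libraries. Same-numbered deviations correlated at 0.106, 0.0271, 0.111 and 0.177 between the high dose and DMSO. Between the high and the low dose they correlated at 0.128, 0.110, 0.179 and 0.298, where each passed 0.1. For that pair blocked values are therefore given for the total, the respiratory chain and CDKN1A. The other values of that pair come from the fit without the block. Library pairs within a group had a chi-square per degree of freedom of 3.28 to 8.46, which shows no duplicated library.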

Additional observations from a re-analysis of the deposited data

Results flagged for a closer look

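For the genes named in the text and for the library measures, the highest or lowest library of a group of 4 was examined for a gap to the others that is large against the group's whole range (Dixon's limit). Of 478 such groups 21 passed the limit, and chance alone passes about 1 in 20.

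High-dose replicate 1 was the lowest of its group for ALDOC (15.4 CPM, the next 27.6 CPM), IRS2 (111 CPM, the next 138 CPM) and SNHG8 (137 CPM, the next 174 CPM). High-dose replicate 2 was the highest of its group for GCLM (35.3 CPM, the next 26.0 CPM), HSPA5 (416 CPM, the next 297 CPM) and SESN2 (100.5 CPM, the next 70.8 CPM). High-dose replicate 4 was the highest of its group for PSMD12 (141 CPM, the next 121 CPM) and YPEL2 (96.5 CPM, the next 79.4 CPM). High-dose replicate 4 was the lowest of its group for SLC6A9 (4.06 CPM, the next 7.92 CPM).

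DMSO replicate 1 was the highest of its group for CLK1 (61.3 CPM, the next 47.6 CPM). DMSO replicate 1 was the lowest of its group for GMNN (119.5 CPM, the next 136 CPM). DMSO replicate 2 was the highest of its group for GCLM (111 CPM, the next 89.1 CPM), LONP1 (72.7 CPM, the next 56.2 CPM), MRPS6 (93.3 CPM, the next 78.6 CPM) and SLC6A9 (4.76 CPM, the next 2.02 CPM). DMSO replicate 3 was the lowest of its group for PSMC4 (172 CPM, the next 246 CPM). DMSO replicate 4 was the highest of its group for MYCNOS (107 CPM, the next 88.3 CPM), NDUFB3 (159.8 CPM, the next 134 CPM), PHLDA3 (14.6 CPM, the next 8.27 CPM) and UCP2 (159 CPM, the next 127 CPM). DMSO replicate 4 was the lowest of its group for SLC7A11 (16.6 CPM, the next 18.8 CPM).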

How the results depend on the processing

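The number of genes called against DMSO, 3456, and against the low dose, 2767, stayed within 1.5 times under the other scalings, filters and tests and with only the compared groups. With replicates 1 and 3 alone it was 2230 against DMSO (1093 higher, 1137 lower) and 1457 against the low dose (730 and 727); with replicates 2 and 4 alone it was 2221 (1076 and 1145) and 1588 (802 and 786), in fits with fewer libraries. Leaving out 1 library at a time gave 2881 to 3231 against DMSO (1462 to 1651 higher, 1384 to 1610 lower) and 2160 to 2516 against the low dose (1142 to 1308 and 991 to 1251).

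With the replicate number as a block 4721 genes were called against DMSO, 2358 higher and 2363 lower, although the numbers did not meet the rule for pairing there; 3 of 4 high-dose libraries correlated best with their own number, a hint from the data and not from the design. The block moved the rises among eIF2 genes to 5, the falls among cytosolic tRNA synthetases to 3, in CCT and prefoldin to 8, in the endoplasmic reticulum to 10 and in mitosis to 13 (with 3 rises), and the rises among mitochondrial ribosomal proteins to 4 and cytosolic ribosomal proteins to 18. With no low-count filter the last of these was 6. With only the compared groups the rises in the neuronal cytoskeleton numbered 3 and the falls among mitochondrial chaperones 2. With the block DNM2 (adjusted p = 0.039), MCL1 (0.0214), NFE2L2 (0.00786) and TOP2A (0.0216), which did not pass without it, were called against DMSO.

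Of the named genes called against DMSO, 17 missed the threshold with replicates 1 and 3 alone and 19 with replicates 2 and 4 alone, in fits with fewer libraries, and PKM was called with replicates 1 and 3 (0.0322). With replicates 1 and 3 the log2 fold change of EIF2S2 was 0.16, of CCT7 -0.17, of DNAJB9 0.32, of GAS5 0.38, of MXD4 0.31 and of NBAS 0.18, and SNAP91, DBH, INSR, MTHFD1, NARS2, NDUFA8 and TNFRSF10B were also lost. With replicates 2 and 4 that of SLC6A9 was 0.90, of DCX 0.25 and of MVD 0.59, and EIF2S1, CCNT1, CDKN1C, CHGA, GAPDH, GCH1, NCL, PHOX2A, PPP1R15A, PSMC4, SLBP and TFRC were also lost; CHORDC1, CRELD2, HSPA4L and TFEB were lost in both subsets. No named gene that was called changed sign under any of the settings, while 15 of 38 values that did not pass took both signs. Depth limits the calls at low levels, where 3 counts correspond to 0.465 to 0.757 CPM.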

Other observations

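Enzymes that supply deoxynucleotides were called lower in 3 of 11 cases and higher in 1, against 12.7% and 12.5% over all tested genes. RRM2, the regulated subunit of ribonucleotide reductase, measured 137, 128, 127 and 135 CPM in the high-dose libraries, against 219.6, 208, 203 and 239 CPM in the DMSO libraries (log2 fold change -0.72 ± 0.092 SE, adjusted p = 1.98e-07). Of 10 genes that control transcript elongation 5 rose and 0 fell, with the bromodomain gene BRD3 at 0.38 ± 0.079 and the cyclin CCNT1 at 0.32 ± 0.091. Among the 10 genes with the smallest p, CREBRF, a regulator of stress signalling, rose by 1.65 ± 0.13 (74.7, 77.1, 72.0 and 92.8 CPM in the high dose and 30.1, 25.8, 24.0 and 21.3 CPM in DMSO). YPEL2, a member of the yippee family, rose by 1.51 ± 0.12 and STK17A, a kinase linked to cell death, by 1.67 ± 0.14, and neither gene overlapped between the groups.

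The identifier ENSG00000256618, which GENCODE 29 names MTRNR2L1, rose to 149, 103, 125 and 213 CPM in the high-dose libraries, against 14.3, 14.5, 16.7 and 18.3 CPM in the DMSO libraries (log2 fold change 3.20 ± 0.26 SE, adjusted p = 4.91e-08); it was chosen after its value was seen. It is a nuclear copy of part of the mitochondrial 16S ribosomal RNA gene, so reads of the mitochondrial RNA, which was not analysed here, could not be told apart from its own. H2BC11 had 3 counts over the high-dose libraries and 28 over the DMSO libraries, and shares most of its sequence with other H2B genes. MYC had 15 counts over the high-dose libraries and 3 over the DMSO libraries and was too low to be tested.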
